A study of Mus musculus with 8 samples.

Results

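Gene deserts, the long stretches of a genome without protein-coding genes, held 2640 regions that were called accessible in all 4 ATAC-seq libraries of mouse DN3 thymocytes. ATAC-seq uses a transposase to cut and tag DNA that is not wrapped in nucleosomes, and a peak is a stretch with more such cuts than its surroundings. Peaks of the 4 libraries were merged wherever they shared 1 bp, which gave 176413 autosomal regions, of which 100024 were overlapped by a peak in every library. The 2640 desert regions, 2.64% of those 100024, lay outside every protein-coding gene body and more than 200 kb from the nearest end of one. Membership was set by presence in the 4 peak lists and by position, so neither is a finding here.

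DN3 thymocytes are immature T-cell precursors that carry neither CD4 nor CD8 and are rearranging their T-cell receptor beta genes. All libraries came from C57BL/6 mice: 2 libraries from cells with a wild-type N-Me and 2 from cells homozygous for mutations of GATA sites 1 and 2 within it. N-Me, the Notch-Myc enhancer, is a distal element through which Notch acts on Myc, a regulator of cell growth. The series also holds 4 leukaemia samples (not analysed here). Whether libraries of a genotype came from separate animals is not stated in the labels, so any p-value measures only the spread between libraries.

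Distal elements act over such distances by looping to a promoter, and deserts beside regulators of development are known to hold arrays of enhancers that work together. In developing T cells the best known examples are the far elements of Myc, Bcl11b and Gata3. Other deserts are gene-poor, late-replicating and compacted in most cell types, many of them beside genes for neuronal adhesion. Antigen-receptor loci look like deserts in a table of protein-coding genes, because their V, D and J segments are joined into a gene only by recombination.

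Most of the desert regions (1895, or 71.8%) overlapped no annotated gene, where genes typed only as “other” in the annotation were not counted. In 539 cases (20.4%) the region lay in the body of a long non-coding RNA (lncRNA) gene. Such gene bodies filled 9.42% of desert length, and they held 20.2% of the 35146 other regions called in all 4 libraries outside coding genes. A RefSeq promoter window, 250 bases before to 50 bases after an annotated start, was overlapped by 48 desert regions (1.82%). These touched 53 windows of 51 lncRNA genes, and 28 windows lay wholly inside a region. Their median lowest fold, the smallest of the 4 libraries' folds, was 3.78, and their median width was 652 bp. Fold here is the authors' enrichment of a peak over its local background, taken as the highest peak of a library in the region.

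The 8 windows below are the annotated starts that give these regions a sequence: 6 are those with the highest lowest fold among windows wholly inside a region and outside the receptor loci, 1 per desert, and 1 each is from the deserts beside Gadd45g and Satb1 described further on. All are from RefSeq on GRCm38.p6, 5′ to 3′ on the strand of the gene. Capitals mark matches, on either strand, to a GATA motif (AGATAA), a RUNX motif (TGTGGT), an ETS motif (CCGGAAGT) or a TCF motif (CTTTGA). These are the motif letters of factor families that act in early T cells.
Gm26901 (chr1:7398047-7398346, minus strand): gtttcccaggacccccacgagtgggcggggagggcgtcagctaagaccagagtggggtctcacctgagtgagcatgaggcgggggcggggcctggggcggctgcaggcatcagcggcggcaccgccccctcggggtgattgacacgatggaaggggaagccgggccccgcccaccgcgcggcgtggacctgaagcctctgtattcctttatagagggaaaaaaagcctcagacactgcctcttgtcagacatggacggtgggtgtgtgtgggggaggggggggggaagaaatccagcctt
Mir99ahg (chr16:77329078-77329377, plus strand): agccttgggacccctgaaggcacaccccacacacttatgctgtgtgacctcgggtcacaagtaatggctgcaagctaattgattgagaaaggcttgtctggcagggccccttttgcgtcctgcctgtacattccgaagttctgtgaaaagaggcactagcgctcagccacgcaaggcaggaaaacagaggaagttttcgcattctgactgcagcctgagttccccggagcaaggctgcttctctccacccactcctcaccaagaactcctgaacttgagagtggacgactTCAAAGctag
AI197445 (chr13:107469572-107469871, plus strand): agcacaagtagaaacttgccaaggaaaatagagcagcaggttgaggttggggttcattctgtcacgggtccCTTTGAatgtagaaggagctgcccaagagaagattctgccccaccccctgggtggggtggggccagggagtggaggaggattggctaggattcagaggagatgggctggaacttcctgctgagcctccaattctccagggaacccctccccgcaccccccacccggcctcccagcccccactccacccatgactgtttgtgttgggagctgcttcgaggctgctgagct
Gm41259 (chr15:6044655-6044954, minus strand): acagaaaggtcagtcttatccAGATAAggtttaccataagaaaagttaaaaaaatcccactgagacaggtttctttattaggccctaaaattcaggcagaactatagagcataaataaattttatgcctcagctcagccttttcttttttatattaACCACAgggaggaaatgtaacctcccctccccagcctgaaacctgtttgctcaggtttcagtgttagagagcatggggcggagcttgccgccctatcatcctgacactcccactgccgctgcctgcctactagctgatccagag
Gm40160 (chr3:143874031-143874330, minus strand): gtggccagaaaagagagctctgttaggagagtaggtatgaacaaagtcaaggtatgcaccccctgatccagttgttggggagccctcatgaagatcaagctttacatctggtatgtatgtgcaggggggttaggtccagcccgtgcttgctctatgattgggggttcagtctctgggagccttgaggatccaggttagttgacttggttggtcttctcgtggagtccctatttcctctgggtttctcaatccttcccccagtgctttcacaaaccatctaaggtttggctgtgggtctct
2410018L13Rik (chr12:23010194-23010493, minus strand): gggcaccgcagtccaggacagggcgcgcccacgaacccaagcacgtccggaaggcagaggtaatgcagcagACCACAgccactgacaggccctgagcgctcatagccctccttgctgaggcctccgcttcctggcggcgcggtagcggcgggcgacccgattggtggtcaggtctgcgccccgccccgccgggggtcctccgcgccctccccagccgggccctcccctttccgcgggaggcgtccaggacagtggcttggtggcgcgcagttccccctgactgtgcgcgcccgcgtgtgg
Gm40948 (chr13:52083558-52083857, minus strand): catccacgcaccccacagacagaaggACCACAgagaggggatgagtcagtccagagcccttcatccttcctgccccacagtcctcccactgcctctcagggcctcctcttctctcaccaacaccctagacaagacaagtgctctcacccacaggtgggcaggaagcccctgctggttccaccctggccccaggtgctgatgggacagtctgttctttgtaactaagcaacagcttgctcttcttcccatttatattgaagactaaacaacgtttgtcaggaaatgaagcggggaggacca
Gm41600 (chr17:52304258-52304557, plus strand): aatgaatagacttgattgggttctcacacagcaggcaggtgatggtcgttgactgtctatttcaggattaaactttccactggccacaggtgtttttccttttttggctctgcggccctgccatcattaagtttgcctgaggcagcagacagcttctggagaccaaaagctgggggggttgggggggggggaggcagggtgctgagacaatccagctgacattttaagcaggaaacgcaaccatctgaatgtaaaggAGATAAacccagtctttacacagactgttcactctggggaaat

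Gm26901, between Pcmtd1 and Sntg1, had folds of 9.67 and 8.92 in the wild-type libraries and 8.14 and 8.22 in the mutant libraries, and its window held no match to the 4 motifs. Mir99ahg, the host transcript of a conserved microRNA cluster, lies between Usp25 and Cxadr and had folds of 7.27 and 7.97 against 6.81 and 6.44. AI197445, between Kif2a and Zswim6, was nearly level in fold over the libraries, with 6.96 and 6.51 against 6.33 and 6.497. The windows of Mir99ahg and AI197445 each held 1 TCF match.

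Gm41259 lies between Ptger4, a prostaglandin receptor gene, and Dab2. It had folds of 8.79 and 9.10 in wild type and 5.81 and 7.17 in mutant, and was the only one of the 8 with both a GATA and a RUNX match. Gm40160, in the desert beside Lmo4, had 6.97 and 5.79 against 5.10 and 5.61, and 2410018L13Rik had 6.52 and 6.44 against 6.005 and 4.798. By fold the wild-type libraries were above the mutant ones in all 3 of these regions, as in the median over all regions. By rank percentile, the rank of a library's fold among the same 100024 regions, the genotypes overlapped in all 3. The genotypes overlapped by rank at Mir99ahg too. At Gm26901 both mutant libraries were higher by rank (97.1 and 96.5 against 94.7 and 94.8), as they were at AI197445 (88.6 and 88.2 against 80.2 and 81.4). Gm40948, beside Gadd45g, had 5.31 and 4.91 against 3.89 and 4.38. Gm41600, beside Satb1, had 3.69 and 3.51 against 3.50 and 4.09. Its genotypes overlapped by fold, and by rank both mutant libraries were higher (49.0 and 58.0 against 33.2 and 34.8).

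Over the 53 windows, a TCF match was present in 15 (28.3%), beside 16.0% of all 32851 promoter windows and 18.9% of the 11588 lncRNA windows. A GATA match was present in 9 (17.0%), beside 11.2% and 14.0%, and a RUNX match in 11 (20.8%), beside 16.8% and 20.05%. No window held the ETS letters, which 3.89% of all windows and 1.58% of lncRNA windows held. An E-box (CACCTG) was present in 16 windows (30.2%, beside 20.2% and 21.1%) and the CTCF core (CCCTC) in 30 (56.6%, beside 66.0% and 59.3%). All were searched on both strands, and none of these letter strings contains another. The windows are not all independent. Those of Gm40900, Gm30948 and Gm30996, in the immunoglobulin heavy-chain locus, hold near-copies of the same sequence, each with TCF and E-box matches. A window of Gm13652 overlaps that of 2600014E21Rik. A match is a string of letters only, and no motif was searched outside these windows.

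The desert regions resembled other regions in strength and were narrower. Their median width was 502 bp against 612.5 bp for the 97384 other regions called in all 4 libraries. The median lowest fold was 3.31 against 3.35, with the 10th to 90th percentile from 2.24 to 5.84 against 2.08 to 6.28. The small difference in the median reversed, to 0.0455, with equal numbers of peaks from each list. A lowest fold of 4 or more was reached by 923 desert regions (35.0%) and by 36.4% of the others. At the top the order turned: a lowest fold of 10 or more was reached by 16 desert regions (0.606%) and by 0.323% of the others, while 2.01% and 2.68% reached 8.

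Presence in all libraries was less common in deserts. Of 5465 desert regions called in any library, 48.3% were called in all 4, against 57.0% of the other 170948 merged regions. A further 1412 desert regions were called in 1 library, 848 in 2 and 565 in 3. Those called in 3 had a median width of 253 bp, and 39, 149, 158 and 219 of them lacked a peak in the first and second wild-type and the first and second mutant library. Of the 848, 573 were in both wild-type lists and 108 in both mutant lists. The wild-type lists were also the longer ones, with 165763 and 153032 autosomal peaks against 118238 and 116435, and the part of list length in these counts was not tested. The same split of regions outside deserts is not given here, so these counts cannot be read as a trait of deserts.

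Accessible regions thinned out steadily with distance from coding genes. Among regions between genes, density fell from 47.1 per Mb within 50 kb of a gene end to 25.4 at 50 to 100 kb and 15.9 at 100 to 200 kb. Beyond the limit used here it went on falling, to 9.76 per Mb at 200 to 300 kb, 6.24 at 300 to 500 kb, 3.60 at 500 kb to 1 Mb and 1.95 beyond 1 Mb. Without the loci of the T-cell receptor alpha and delta chains and the immunoglobulin heavy chain, the last 2 values were 2.32 and 1.29. Deserts as a whole, 456.8 Mb or 19.0% of the length between the first and last coding genes of the autosomes, held 5.75 desert regions per Mb, against 50.1 other regions per Mb elsewhere.

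**Figure D1:**
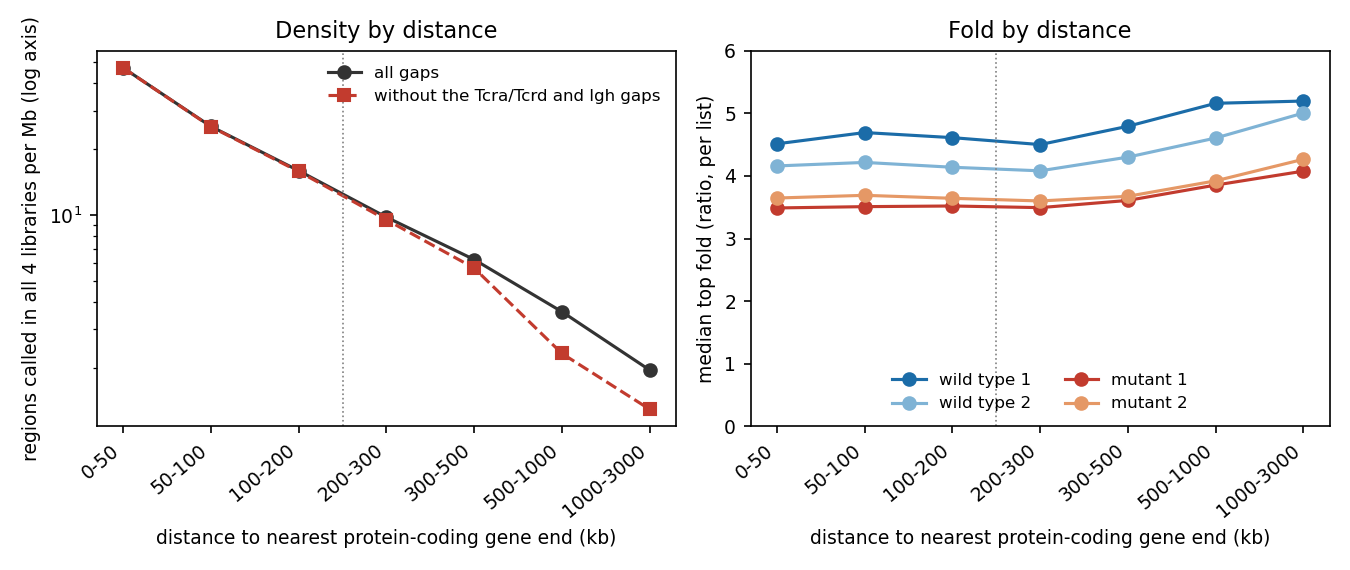
Left, density of regions called in all 4 libraries (per Mb, log axis) by distance to the nearest protein-coding gene end (kb), for all gaps between genes and without the 2 antigen-receptor gaps. Right, median top fold (ratio, each library's own list) in the same classes; the dotted line marks 200 kb, the density falls from 47.1 to 1.95 per Mb, while the median fold stays within a narrow range in each library.

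Fold changed little with distance. The median lowest fold was 3.29 within 50 kb of a gene, 3.21 at 200 to 300 kb, 3.57 at 500 kb to 1 Mb and 3.81 beyond 1 Mb, while the median width fell from 540 to 426.5 bp. Without the 2 receptor gaps the last 2 fold values were 3.11 and 3.67, so the rise at 500 kb to 1 Mb rests on those gaps and the class beyond 1 Mb, with 84 regions, kept part of it. With all gaps the direction was the same in each library: between the first and the last class the median fold went from 4.51 to 5.20 and from 4.16 to 5.01 in wild type, and from 3.49 to 4.08 and from 3.65 to 4.27 in mutant. The median distance of a desert region was 319 kb, 617 (23.4%) lay beyond 500 kb, 128 beyond 1 Mb, and the farthest at 2138 kb.

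The 3 just inside lay 200.09, 200.106 and 200.108 kb from a gene, beside Tle3, Satb1 and Jun, with lowest folds of 2.72, 1.75 and 2.07. The 3 just outside lay at 199.977, 199.895 and 199.891 kb, beside Tent5a, Kcnrg and Zfp64, with 3.94, 3.34 and 2.14.

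Desert regions were strongly bunched. A desert region had another within 10 kb in 1608 cases (60.9%), the median distance to the next was 6.11 kb, and 133 were alone in their gap. Of 722 gaps wide enough to hold a desert, 379 had at least 1 region and 129 of those had exactly 1. The 10 best filled held 728 regions, 27.6% of the total, in 2.14% of desert length, and 33 deserts held 20 or more. At the other end, 35 of the 141 deserts of at least 1 Mb were empty. The longest of these lay between Slc39a10 and Tmeff2 on chromosome 1, where 3.57 Mb held 9 regions in any library and none in all 4. The next were Stim2 to Pcdh7 (3.20 Mb), D3Ertd751e to Pcdh10 (3.18 Mb), Tenm2 to Mat2b (3.04 Mb) and Snx16 to Ralyl (2.63 Mb), of which 3 end at a gene for neuronal adhesion.

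The 2 fullest deserts were antigen-receptor loci. Between Gm36448 and Dad1 on chromosome 14, which holds the V segments of the T-cell receptor alpha and delta chains, 184 regions stood at 142 per Mb, and 96 of them overlapped a gene segment. The segments touched were 88 of 130 annotated Trav and 4 of 6 Trdv segments. Median folds there were 5.47 and 5.07 in wild type and 4.15 and 4.36 in mutant, above the medians over all desert regions in each library. The strongest region on a segment was at Trav12d-3 (chr14:52929356-52929864), with a lowest fold of 8.89, followed by Trav12-1 with 8.24 and Trav9-2 with 7.40.

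The other, between Adam6a and Zfp386 on chromosome 12, holds the V segments of the immunoglobulin heavy chain, a locus that B cells rearrange. It held 151 regions at 71.9 per Mb, and 76 regions overlapped a segment, touching 76 of 183 Ighv segments. Median folds were 5.84 and 5.25 in wild type and 4.76 and 4.61 in mutant, the highest of the 10 fullest deserts in each library. The strongest on a segment were at Ighv1-52 (lowest fold 8.18), Ighv1-47 (7.80) and Ighv1-70 (7.41). The hairpins of Mir7094-1 (chr12:114469407-114469466) and Mir7094-2 (chr12:114513635-114513694), 2 near-identical microRNA genes, lie in regions of this locus with lowest folds of 5.87 and 5.97. They are shown because they are the only microRNA hairpins of the RefSeq table that lay in a desert region; both give the same 3p arm, and capitals mark the seed, bases 2 to 8.
mmu-miR-7094-3p: uACUCUGCuguucucuccaca
mmu-miR-7094-1-5p: uCUGAAGAggauacagggucuga
mmu-miR-7094b-2-5p: uCUGGAGAggauacagggucuga

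Of the B-cell genes checked, Pax5, Ebf1 and Cd79a had a peak within 1 kb of a gene end in all 4 libraries. Their part in the heavy-chain regions was not tested. All 10 DN3 markers (Ptcra, Il2ra, Rag1, Rag2, Notch1, Cd3e, Bcl11b, Tcf7, Gata3 and Dtx1) had such a peak in each library. Of 4 genes each, erythroid genes had 2 in every library (none at Gata1 and Hba-a1) and NK genes 3 (none at Ncr1). Myeloid genes had 4 in both wild-type and 2 in both mutant libraries, and thymic stroma genes 3 and 2 (none at Krt5).

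Beyond the receptor loci, 6 of the 8 fullest deserts bordered a gene of the T-lineage or developmental factor list. Sall3 to Galr1 on chromosome 18 held 75 regions at 74.6 per Mb. Runx1 to Setd4 on chromosome 16 held 52 at 146 per Mb, beside a factor needed for blood stem cells and T cells. Prl5a1 to Sox4 held 50 at 126 per Mb, Cd83 to Jarid2 held 45 at 85.3 per Mb and Gadd45g to Diras2 held 43 at 168 per Mb, all 3 on chromosome 13, which had the highest density of any autosome (13.2 per Mb of desert). Sox4 encodes a factor of lymphocyte progenitors, Jarid2 a partner of Polycomb, and Gadd45g a stress-induced signalling protein.

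Myc to Gsdmc on chromosome 15 held 46 regions at 33.2 per Mb, Celf2 to Gata3 on chromosome 2 held 42 at 20.4 per Mb, and Gm52008 to Bcl11b on chromosome 12 held 40 at 100 per Mb. Gata3 and Bcl11b encode factors that commit progenitors to the T lineage. By density alone, among deserts with at least 5 regions, the shorter Tbc1d1 to Gm38457 (177 per Mb), Klf14 to Mkln1 (176), Uaca to Tle3 (163), Tle3 to Rplp1 (148) and Prok2 to Rybp (147) also ranked in the first 10, with 7 to 15 regions each. Tbc1d5 to Satb1 (135) was there too, with 21. Tle3, a corepressor that works with TCF and RUNX factors, was thus flanked by dense deserts on both sides.

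**Figure D2:**
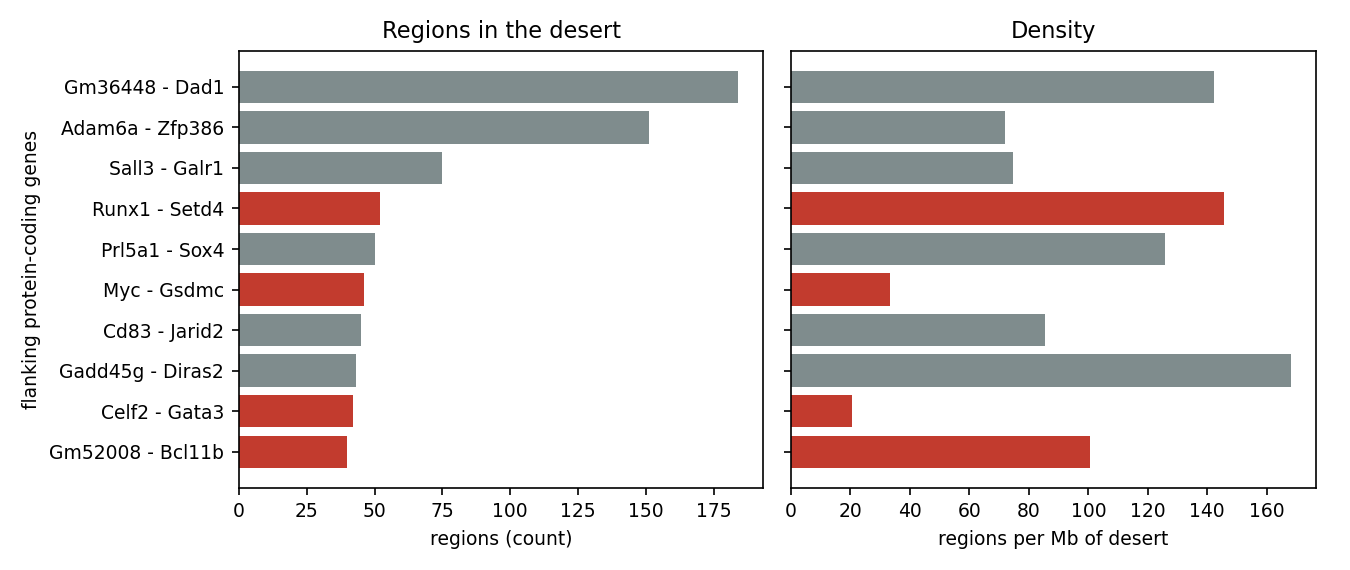
The 10 deserts with most regions, named by their flanking protein-coding genes, by count (left) and by regions per Mb of desert (right). Red bars are deserts flanked by a gene of the T-lineage list; the 2 receptor loci at the top hold 184 and 151 regions, and the Gadd45g desert is the densest of the 10 at 168 per Mb.

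Within a desert the regions were not spread evenly. All 42 of the Celf2 to Gata3 desert lay on the Gata3 side, 223 to 1218 kb from Gata3 and none closer to Celf2 than 1243 kb, although that desert is 2.06 Mb long. The 46 beside Myc ran from 216 to 1569 kb from its annotated end, and the 52 beside Runx1 from 202 to 548 kb. Lowest folds in these deserts ran from 1.97 to 6.13 beside Gata3, 1.58 to 6.996 beside Myc and 1.698 to 5.97 beside Runx1. The medians of the lowest fold were 3.06, 2.96 and 3.04 in these 3, under the 3.31 of all desert regions, while the Gadd45g desert had 3.58 and the receptor loci had 4.001 and 4.22.

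**Figure D3:**
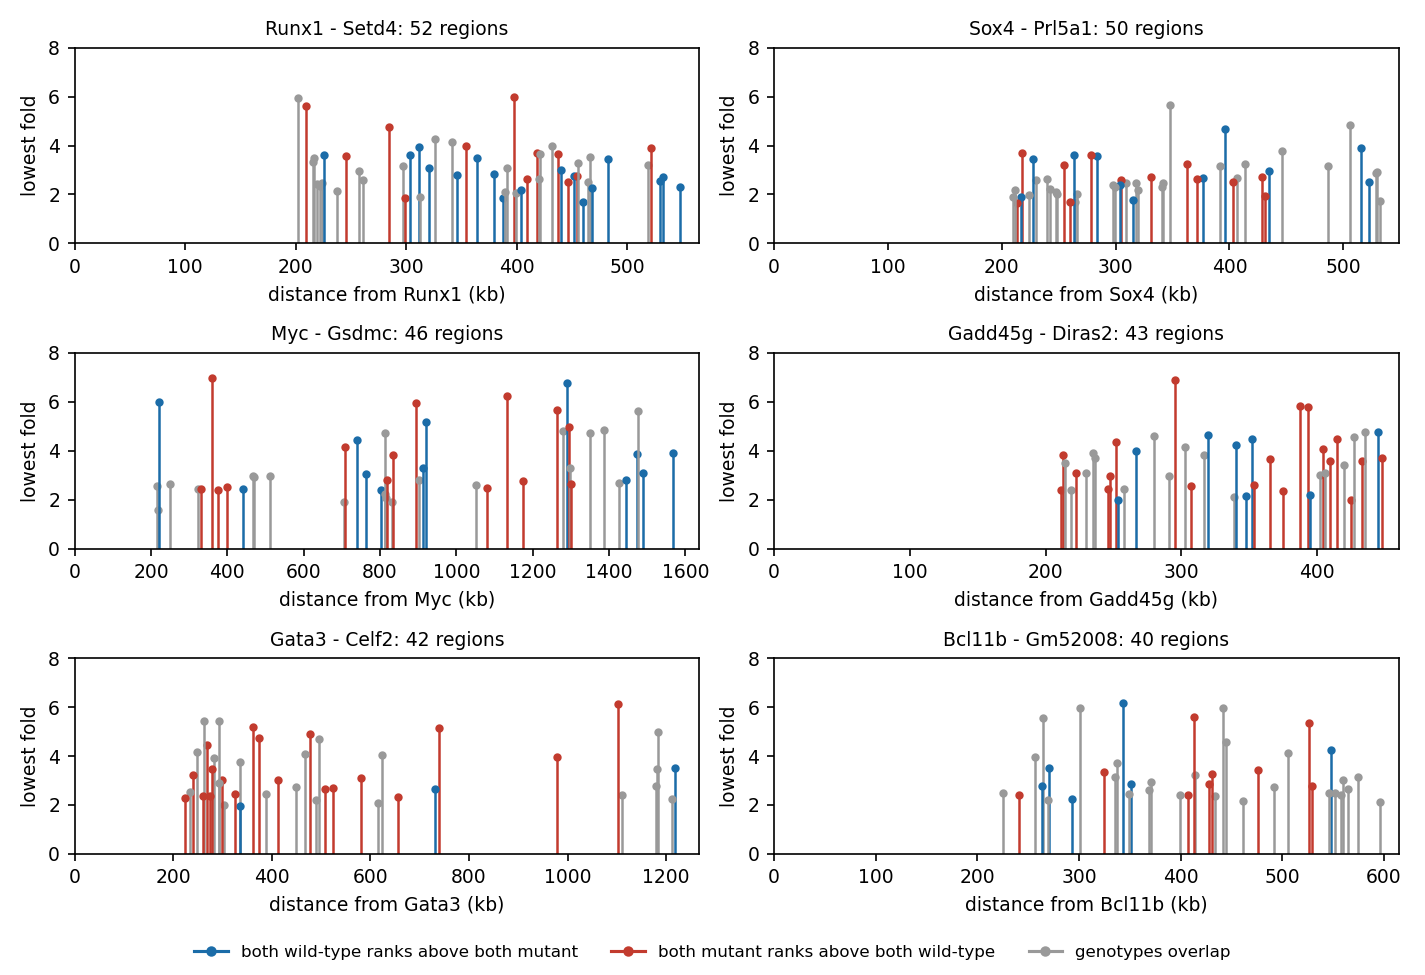
Regions of 6 deserts by distance from the gene named on each x axis (kb), with stem height the lowest fold of the 4 libraries (ratio). Colour gives whether the ranks of fold in both wild-type libraries lie above both mutant ones (blue), below them (red) or overlap (grey); beside Gata3, 19 of 42 are red and 3 are blue.

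Deserts were then grouped by the genes at their edges, using 4 gene lists. Regulators of the T lineage (44 genes) bordered 20 deserts of 16.6 Mb, which held 402 regions at 24.3 per Mb. Of the 16 listed genes that border a desert, 14 had at least 1 region. Genes of T-cell receptors and signalling (39) bordered 6 deserts of 1.04 Mb with 21 regions, 20.3 per Mb. Factors of embryonic development (110) bordered 64 deserts with 261 regions, 8.08 per Mb. Neuronal and cell adhesion genes (95) bordered 97 deserts of 136 Mb with 187 regions, 1.38 per Mb. Deserts with no listed gene and no receptor locus had 5.34 per Mb. Density also fell with distance from coding genes, as given above, and the lists were not matched for the length of their deserts.

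Sums over a list rest on its fullest deserts. The median desert had 20.7 regions per Mb for T-lineage regulators, 11.8 for receptors and signalling, 0 for developmental factors, 0.371 for adhesion genes and 0.707 over all deserts. The T-lineage deserts with no region were those of Erbb4 to Ikzf2, Etaa1 to Meis1, Mef2c to Tmem161b and Opa1 to Hes1, with desert lengths from 0.00223 to 0.527 Mb. Regions beside adhesion genes were fewer but not weaker, with a median lowest fold of 3.56 against 3.09 beside T-lineage regulators, and they were narrower (373 against 534 bp).

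The window 1.2 to 1.3 Mb downstream of Myc, counted from the annotated start of the gene, is where N-Me lies, and it held 3 desert regions. The one nearest the published distance of N-Me, chr15:63254999-63256647, had folds of 6.45 and 5.67 in wild type and 6.60 and 6.18 in mutant. Its rank percentile was 75.4 and 72.8 in wild type and 90.4 and 85.8 in mutant. By fold the genotypes overlapped, and by rank both mutant libraries were higher. The next, chr15:63270083-63271741, had 5.99 and 6.02 against 4.82 and 5.0002, and overlapped by rank (70.4 and 76.6 against 73.0 and 73.1). The third, chr15:63279640-63280590, had 10.1 and 8.31 against 6.77 and 7.01, with the wild-type ranks (95.9 and 92.6) above the mutant ones (91.5 and 91.6).

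Beside T-list genes the strongest desert region of each of 10 deserts had a rank percentile of 76.3 or more in every library. At Runx1, chr16:93223418-93224281 had folds of 6.54 and 6.32 against 6.06 and 5.97, and at Gata3, chr2:8754111-8754602 had 7.28 and 6.13 against 7.01 and 7.18. At Bcl11b, chr12:107566222-107567183 had 11.4 and 8.22 against 6.82 and 6.17. At Zeb2, a zinc-finger repressor, chr2:46370851-46371520 had 13.6 and 11.7 against 8.08 and 8.19. Fold was higher in both wild-type libraries at Runx1, Bcl11b and Zeb2 and overlapped at Gata3. By rank, both wild-type libraries were higher at Bcl11b and Zeb2, and both mutant libraries at Runx1 (86.5 and 84.0 against 76.3 and 79.7) and Gata3 (92.8 and 92.4 against 82.8 and 77.9).

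Fold was also higher in both wild-type libraries at Id2, Satb1 and Tox. At Id2, an inhibitor of E proteins, chr12:25475170-25475833 had 10.8 and 8.83 against 6.69 and 6.62. At Satb1, an organiser of thymocyte chromatin, the regions on its 2 sides had 7.03 and 6.57 against 6.17 and 5.57 (chr17:52182663-52183167) and 8.75 and 7.19 against 5.71 and 5.84 (chr17:51484587-51485345). At Tox, chr4:7363656-7364784 had 7.14 and 7.55 against 6.04 and 5.78. By rank the wild-type libraries were higher at Id2 and at the second Satb1 region, and the genotypes overlapped at the first Satb1 region (80.8 and 81.9 against 87.4 and 80.0) and at Tox (81.7 and 88.9 against 86.4 and 82.2). At Myc, chr15:62350621-62351351 had 8.86 and 7.38 against 6.996 and 9.62, so the genotypes overlapped by fold, and both mutant libraries were higher by rank (92.7 and 99.0 against 91.9 and 87.9). At Tcf4, an E protein gene, the wild-type folds were the higher ones too, but at another level altogether.

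That region, chr18:68692064-68692314 between Mc2r and Tcf4, had the highest lowest fold of all, 29.9 and 30.3 in wild type and 25.9 and 27.7 in mutant. No filter on regions of unreliable mapping was applied here, and whether reads from repeated sequence add to the folds of the strongest or longest regions was not tested. Among the next were chr8:15519778-15520121 (Myom2 to Csmd1; 27.4 and 26.0 against 24.98 and 24.8), chr3:5860340-5860824 (Pex2 to 1700008P02Rik; 23.5 and 23.4 against 21.1 and 20.6) and chr1:102628179-102628338 (Cntnap5b to Cdh20; 26.9 and 25.8 against 18.7 and 28.0). Others were the regions between Flrt2 and Galc (chr12:97061432-97061786), Nxph1 and Ndufa4 (chr6:9889947-9890155), Pcdh7 and G6pd2 (chr5:60042838-60043086) and Lrrc4c and Iftap (chr2:98666250-98667900), with lowest folds from 17.3 down to 13.4. The region between Cntnap5b and Cdh20 was also the farthest from any coding gene. Several flanking genes, among them Cdh20, Csmd1 and Pcdh7, act in neuronal adhesion.

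**Figure D4:**
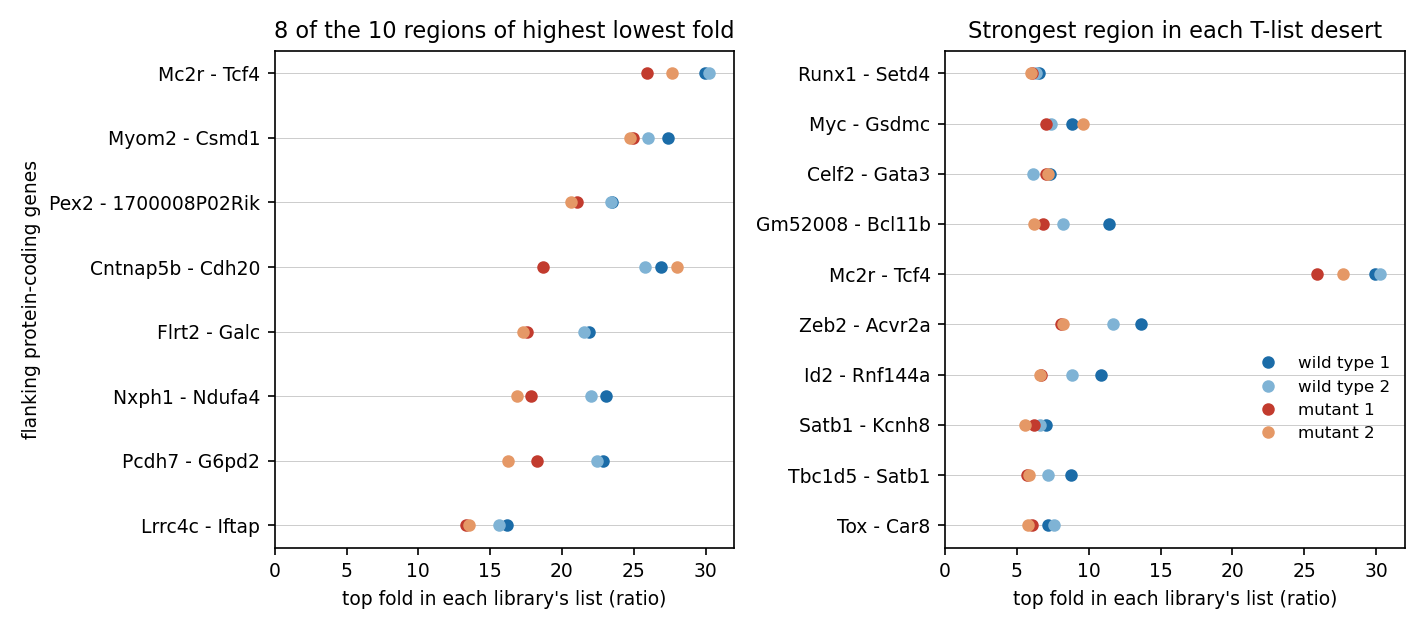
Top fold in each library's own list (ratio) of 8 of the 10 desert regions with the highest lowest fold (left) and of the strongest region in each of 10 deserts beside T-list genes (right). Points are libraries; the regions on the left reach 30.3, while on the right all but the one beside Tcf4 stay under 14.

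The shape of these strongest regions set them apart from the rest as a description. In 9 of the 10, each library had 1 peak whose edges fell within 15 bp of those in the other libraries, and the widest of the 9 was 485 bp. The median of the larger edge range was 2.5 bp for the 10 and 137 bp over all desert regions, of which 62 had both edges within 15 bp. The tenth, between Lrrc4c and Iftap, was 1651 bp wide and its right edge ranged over 578 bp. Its −log10 q values ran from 9098 to 11642, against medians of 10.5 to 17.0 over desert regions.

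The longest regions carry the same limit on mapping. Before Alkbh8 on chromosome 9, chr9:2999139-3038826 was covered over 38487, 38220, 39088 and 38818 bp in the 4 libraries, with folds of 7.33 and 6.81 against 6.26 and 6.33. Next were chr18:82161068-82170946 beside Galr1 (5.08 and 5.08 against 4.35 and 4.33) and chr16:3231607-3241686 before Olfr161 (3.32 and 2.96 against 2.71 and 3.26). In 5 of the 10 longest the second wild-type library stood apart, with a fold at least 1.3 times that of the next library. Examples are chr10:27818950-27825423 between Lama2 and Ptprk (3.05 and 6.04 against 2.21 and 2.97) and chr3:6298154-6307274 (3.34 and 5.54 against 2.59 and 2.55). This occurred in 11 of the 46 desert regions of at least 2000 bp (23.9%), in 1.89% of all desert regions and in 2.16% of the 3430 other regions of that width. The first wild-type library stood apart by this measure in 4 of the 46 (8.70%). For that library the share was 9.89% of all desert regions and 2.80% of the other regions of that width.

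Between genotypes, the desert regions as a whole differed in covered length, peaks per region and fold. The median covered length was 350 and 332.5 bp in the wild-type libraries (341 ± 12.4, mean ± SD, n = 2), 446 bp in the first mutant library and between the wild-type and that value in the second (mutant 419 ± 38.2, n = 2). The mean number of peaks per region was 1.07 and 1.06 against 1.01 and 1.01, and the median fold 4.76 and 4.27 against 3.62 and 3.71. For these 3 measures the genotypes did not overlap, with an exact two-sided permutation p of 0.333, the smallest that 2 against 2 libraries allow. The shortest peak of a list was 64 and 65 bp in wild type and 73 and 87 bp in mutant. With 1 minimum length and joining gap applied to all lists, mutant over wild-type covered length was 1.23, the same as without to that precision.

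Other regions shifted in the same way. Their medians were 470 and 461 bp against 522 and 494 bp for covered length, and 4.58 and 4.203 against 3.54 and 3.70 for fold. By rank percentile, which removes a list-wide shift of fold, the desert medians were 53.0 and 51.3 in wild type and 51.5 and 50.1 in mutant. These overlapped (exact two-sided permutation p = 0.667). Folds of desert regions ranked alike within a genotype, with a Spearman rho of 0.908 between the wild-type and 0.911 between the mutant libraries, and less so across genotypes (0.785 to 0.798). Over other regions the values were 0.948, 0.948 and 0.864 to 0.892. These are over 2640 and 97384 regions that share libraries and depth, as a description.

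Region by region, both wild-type ranks lay above both mutant ones in 823 desert regions (31.2%), where 27.7% of all 100024 regions did so. The opposite held in 762 (28.9%), where 32.4% of all regions did so. Without the first wild-type library the counts were 1065 and 1123, so which of them is larger rests on that library. These were 39.72% and 41.89% of desert regions, where 37.96% and 41.64% of all regions did so. The wild-type share thus stayed above that of all regions, and the mutant share was close to it. With all 4 libraries, counts in each direction were within 4 percentage points of the background. Covered length was greater in both wild-type libraries in 433 desert regions (16.4%; background 19.9%) and in both mutant libraries in 1174 (44.5%; background 38.7%).

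The balance differed between deserts, as counts with no test. Beside T-lineage regulators 97 of 402 regions were higher in wild type and 137 in mutant (24.1% and 34.1%), near the background of 27.7% and 32.4%. Beside T-cell receptor and signalling genes it was 3 and 9 of 21 (14.3% and 42.9%). Beside developmental factors it was 93 and 54 of 261 (35.6% and 20.7%), and beside adhesion genes 64 and 39 of 187 (34.2% and 20.9%). Regions of 1 desert share their surroundings, so these are not independent counts.

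Among single deserts with at least 10 regions, Celf2 to Gata3 had 3 regions higher in wild type and 19 higher in mutant, of 42. Satb1 to Kcnh8 had 6 and 14 of 24, Gadd45g to Diras2 8 and 19 of 43, A1bg to Myc, the desert upstream of Myc, 2 and 9 of 14, and Zfp608 to Gramd3 2 and 12 of 19. The opposite balance was seen at Sall3 to Galr1 (30 and 14 of 75), Gm36448 to Dad1 (73 and 44 of 184), Fut8 to Gm6657 (8 and 1 of 17) and Camk1g to Plxna2 (7 and 0 of 10). Runx1 to Setd4 was mixed, with 17 and 12 of 52, as was Myc to Gsdmc, which holds N-Me, with 12 and 14 of 46. These deserts were picked out after their counts were seen.

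**Figure D5:**
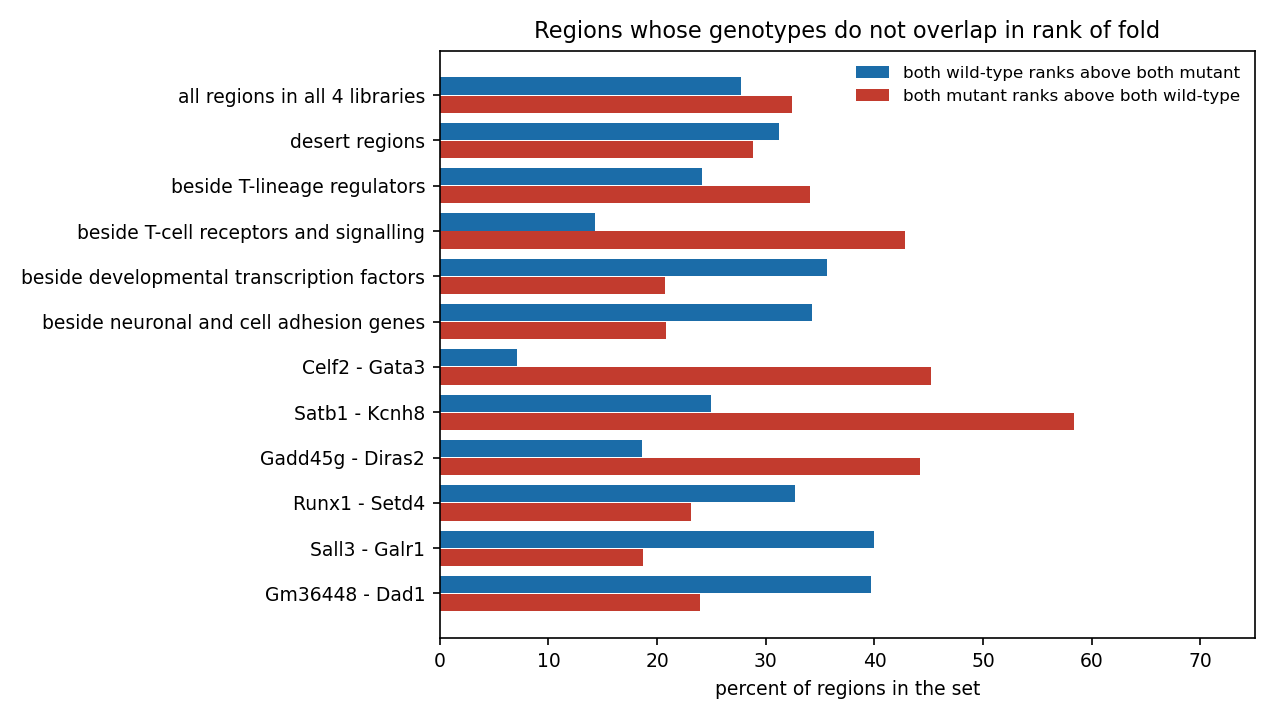
Percent of regions in each set whose ranks of fold do not overlap between genotypes, with both wild-type libraries above both mutant ones (blue) or below them (red). The top pair is the background over all 100024 regions (27.7% and 32.4%), and of the 6 deserts drawn Celf2 to Gata3 has the largest excess of red over blue.

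The 5 largest single gaps towards wild type came from regions of 140 to 452 bp, none beside a gene of the T-lineage or T-cell lists. Between Nxph1 and Ndufa4, chr6:10712620-10713031 had folds of 10.2 and 8.39 in wild type and 2.91 and 2.68 in mutant, with ranks of 96.2 and 92.9 against 33.9 and 22.5. Between Bmp2, a bone morphogenetic protein gene, and Hao1, chr2:134029772-134029911 had 6.72 and 6.33 against 2.67 and 3.06. The other 3 were chr13:68167930-68168222 (BC048507 to Mtrr; 5.52 and 4.66 against 2.298 and 2.32), chr10:84101097-84101548 (1500009L16Rik to Nuak1; 6.36 and 4.28 against 2.07 and 2.22) and chr8:102008851-102009147 (Cdh8 to Cdh11; 6.47 and 5.18 against 2.61 and 2.29). All 5 still had a peak in each mutant library, as the choice of regions requires.

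Towards mutant, 2 of the 5 largest gaps lay in the desert between Satb1 and Kcnh8. There chr17:52103497-52103832, 270 kb from Satb1, had folds of 3.03 and 2.33 in wild type and 4.51 and 6.33 in mutant, with ranks of 19.4 and 6.88 against 68.3 and 86.9. The second, chr17:52311796-52312453, 479 kb from Satb1, had 3.27 and 2.42 against 4.53 and 5.54. In the 12 other regions of this desert that ranked higher in mutant the gap between the genotypes was smaller, from 0.704 to 17.3 percentile points. The remaining 3 were chr16:76810852-76811614 (Nrip1 to Usp25; 3.34 and 2.997 against 5.19 and 5.03), chr15:93824440-93825115 (Prickle1 to Adamts20; 2.57 and 2.72 against 4.10 and 4.41) and chr9:61141864-61142209 (Uaca to Tle3; 2.28 and 2.25 against 4.58 and 3.73). In all 5, unlike the desert regions at large, the fold itself was higher in both mutant libraries.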

How the data were processed

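Each of the 4 DN3 libraries had 1 deposited broad peak list. The submitters' processing notes name MACS2 2.1.1, Bowtie2 2.3.3.1, cutadapt 1.16 and SAMtools 1.7, with mm10 (GRCm38) as build. For their order, settings, read filters and any transposase shift: not given in the sources used here. Per the deposited values, the score of a peak is its −log10 q times 10, truncated. Fold in the deposited lists is a ratio, pileup over local background, and the −log10 p and −log10 q values were also set within each library by the authors' caller. The lists hold no read counts, so depth is unknown and no count model or interval was possible.

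Lists were merged with 1 bp of overlap on autosomes. Coding genes (20560) came from the RefSeq table of GRCm38.p6, which gives no strand. Genes listed wholly before 3 Mb (328, 105 coding), where that build holds no autosomal sequence, were left out. No list of regions with unreliable mapping was applied. A desert is a gap between neighbouring coding genes less 200 kb at each end. Genotypes were compared by 1 value per library with an exact two-sided permutation test; regions were described by whether both libraries of 1 genotype ranked above both of the other. A genome was not used, so motifs were searched in RefSeq promoter windows only.

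Named were the N-Me window, the 10 regions with the highest lowest fold, longest cover and greatest distance (of which the ends of each list are given), the 10 fullest and densest deserts, the strongest region in up to 10 deserts of T-list genes, the 5 largest rank gaps each way and the 3 regions on each side of the limit. A marker gene and 2 of the strongest regions are not reported here. The regions and gene lists were chosen with earlier results of these data known. Alternatives were the overlap, distance, gene types, fold and q minimums, list length, minimum peak length and joining gap, and each library left out. The code was tested on simulated lists. Python 3.11.15, numpy 2.4.6, pandas 2.3.3, scipy 1.17.1 and matplotlib 3.10.9 were used.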

Additional observations from a re-analysis of the deposited data

Results flagged for a closer look

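The X chromosome was outside the rule, and 67 of its regions met the rule in every other respect. They were 3.13% of the 2141 X regions called in all 4 libraries, with a median lowest fold of 3.47, a highest of 8.86 and a median width of 549 bp. The gap between H2al1j and Bcor, a gene for a Polycomb-associated corepressor, held 22 of them, that between Dipk2b and Tex13c3 held 7, and that between H2al1n and Cypt1 held 5.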

How the results depend on the processing

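The number of desert regions moved with the distance, the gene types and the peak minimums. It was 2640, 5814 at 100 kb, 617 at 500 kb, 77 if every annotated gene ended a desert, 923 from peaks of fold 4 or more and 1693 from peaks with a −log10 q of 5 or more. As a percent of regions called in all 4 libraries it was 2.64, and in the same order 5.81, 0.617, 0.0770, 2.54 and 2.34. That percent was 2.36 where a library had to cover 50% of a region and 2.52 with equal numbers of peaks. The median lowest fold of desert regions minus that of other regions, −0.0399, reversed to 0.296 at 500 kb, 0.163 at the −log10 q minimum and 0.0455 with equal numbers of peaks. It was −0.134 with every gene and −0.200 at fold 4. The difference in median width, −110.5 bp, was −166 bp at 50% cover, −87 bp at 100 kb, −144 bp at 500 kb and −250 bp with every gene. Regions ranked higher in wild type, 823, numbered 1720 at 100 kb, 202 at 500 kb, 26 with every gene and 315 at fold 4. These were 29.6%, 32.7%, 33.8% and 34.1% of desert regions. The background was 27.7%, or 27.1% at fold 4. Regions ranked higher in mutant, 762, numbered 1703, 163, 16 and 248 under these settings, 495 at 50% cover and 481 at the −log10 q minimum. In that order these were 29.3%, 26.4%, 20.8%, 26.9%, 27.6% and 28.4%. The background was 32.4%, or 35.5% at fold 4, 33.1% at 50% cover and 34.1% at the −log10 q minimum. The share of the 10 fullest deserts, 27.6%, was 15.8% at 100 kb, 56.7% at 500 kb, 53.2% with every gene, 32.3% at fold 4 and 30.7% at the −log10 q minimum. The cause of these shifts was not tested beyond the number of regions each setting keeps. In an alternative chosen after seeing the data, receptor gene segments ended a desert too: 2298 regions remained by count, 2.297% of those called in all 4, with a fold difference of −0.154 and 20.1% in the 10 fullest deserts.

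Leaving out each library in turn gave 2681 to 2869 regions, a fold difference of −0.0658 to −0.0242 and a width difference of −110 to −93 bp. The ratio of covered length was 1.14 to 1.301, and 26.7% to 27.6% of regions lay in the 10 fullest deserts. With fewer libraries to separate, 1065 to 1193 regions ranked higher in wild type and 1012 to 1123 in mutant. These were 39.35% to 42.74% and 35.98% to 41.89% of desert regions. Over all regions the shares were 37.11% to 37.96% and 41.39% to 43.27%, so the mutant share was the larger in each setting. Without the second wild-type library and without either mutant library the desert regions higher in wild type outnumbered those higher in mutant, as with all 4. Without the first wild-type library they did not. The wild-type share of desert regions was above that of all regions in each setting. The mutant share was above it only without the first wild-type library (41.89% against 41.64%).

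With same-numbered libraries as a block, mutant minus wild type was 96 and 59.5 bp in median covered length, −0.0576 and −0.0473 in peaks per region, −1.14 and −0.566 in median fold and −1.47 and −1.22 in median rank percentile. Nothing in the labels says that a number pairs libraries, and 2 pairs allow no test. The lists carry no depth, so a desert region missing from 1 list may be present below its threshold.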
